A study of Rattus norvegicus with 6 samples.

Results

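The insulin-like growth factor (IGF) family described here comprised 10 genes, taken by symbol from the 20264 rows of the combined count table. They were the 2 ligands Igf1 and Igf2, the 2 receptors Igf1r and Igf2r, and the 6 binding proteins Igfbp2, Igfbp3, Igfbp4, Igfbp5, Igfbp6 and Igfbp7. All 10 symbols had a row, and 8 had enough counts to be tested. The ligands did not. RNA-seq had been performed on primary nucleus pulposus cells (NPCs), the cells of the gelatinous core of the intervertebral disc, from the tail discs of wild-type male Sprague-Dawley rats, with 3 libraries in the TBHP group and 3 in the TBHP+FGF21 group. Both groups received tert-butyl hydroperoxide (TBHP), an organic peroxide used to induce oxidative stress and senescence, so no library came from cells without the oxidant. The TBHP+FGF21 group also received recombinant rat FGF21, a hormone of the fibroblast growth factor family, and the comparison asked how FGF21 changed the RNA of TBHP-treated cells. The treatment labels of that group read FGF21 in replicate 1 but FGF22 and FGF23 in replicates 2 and 3, whereas the series design and the treatment protocol give FGF21 for all of them. Dose, duration and age were not given for these libraries. The cells were grown with 15% fetal bovine serum, which brings growth factors of its own. The design calls the 3 libraries of a group biological replicates without naming separate animals, so p-values measure only the spread between these libraries. In such bulk samples, fewer cells of a type and less RNA per cell cannot be told apart.

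IGF1 and IGF2 are small secreted proteins that act through IGF1R, a receptor tyrosine kinase that signals through IRS adaptors, PI3-kinase and AKT. IGF2R lacks a kinase domain and clears IGF2 from the cell surface, besides carrying mannose-6-phosphate-tagged enzymes to lysosomes. The IGF-binding proteins (IGFBPs) hold the ligands outside the cell and release them when cut by proteases. In the disc, IGF1 is known to promote proteoglycan synthesis, and several IGFBPs are known among the proteins secreted by senescent cells.

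The libraries held 18277732 to 22426190 counts. Replicate 2 of the TBHP+FGF21 group stood apart from its group, with a mean Spearman's rho of 0.996 with the TBHP libraries and 0.990 with the other libraries of its own group across the genes tested. Replicate 3 of the TBHP group was also slightly nearer to the other group (0.994) than to its own (0.993). Replicate 3 of the TBHP+FGF21 group was the farthest from the TBHP libraries (0.988, and 0.992 with its own group). Without it, or without replicate 1 of the TBHP group, 0 family genes had an unadjusted p under 0.05 by edgeR. Values are given for all libraries and also with replicate 2 of the TBHP+FGF21 group omitted. Because that library was singled out for its likeness to the TBHP libraries, leaving it out favours a difference between the groups, so values without it are descriptions from which no change is called. The cell type was checked against marker genes, with levels in CPM, the usual count scaled to library size, here after TMM normalization. Of the notochordal markers, Tbxt, Noto and Shh were at 0 in every library, and the most abundant was Foxf1 at 39.8 to 62.1 CPM. Acan, the core protein of the main disc proteoglycan, reached 2506 to 4355 CPM, while Col2a1 had 68 counts in all. The summed level in the TBHP and TBHP+FGF21 groups was 84.5 to 98.5 and 88.2 to 105 CPM for the notochordal list. For the chondrocyte-like list it was 4451 to 4916 and 4803 to 5757 CPM. The annulus fibrosus and fibroblast list, led by Col1a1, summed to 43079 to 47579 and 32676 to 44999 CPM. The smooth muscle and pericyte list, led by Tagln, summed to 4477 to 4848 and 3148 to 4723 CPM. Macrophage markers summed to 32.2 to 38.2 and 26.8 to 33.0 CPM, nearly all of it Cd14, with Ptprc and Adgre1 at 0. Endothelial markers stayed between 0.474 and 1.10 CPM, with Cdh5, Kdr and Tie1 at 0. Skeletal muscle markers summed to 2.68 to 3.66 and 1.44 to 4.40 CPM with Myod1 at 0, Schwann cell markers to 109 to 127 and 106 to 138 CPM with Sox10 at 0, and osteoblast markers to 11.6 to 16.5 and 11.8 to 19.1 CPM.

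The promoters of the 3 genes on which the results turn are shown here, since they were the family genes whose adjusted p depended on whether replicate 2 of the TBHP+FGF21 group was included. Each is the 250 bases before the RefSeq start in assembly GRCr8, written 5′ to 3′ on the strand of the gene, with CG dinucleotides in capitals. All 10 family genes matched the RefSeq promoter table by symbol.

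Igf2r, chr1:50526628-50526877, plus strand: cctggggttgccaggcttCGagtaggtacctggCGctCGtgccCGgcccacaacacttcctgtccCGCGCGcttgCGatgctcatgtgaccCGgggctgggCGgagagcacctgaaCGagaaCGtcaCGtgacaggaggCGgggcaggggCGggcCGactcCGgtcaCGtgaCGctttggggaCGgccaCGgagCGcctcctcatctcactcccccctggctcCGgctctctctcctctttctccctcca

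Igfbp3, chr14:86277945-86278194, minus strand: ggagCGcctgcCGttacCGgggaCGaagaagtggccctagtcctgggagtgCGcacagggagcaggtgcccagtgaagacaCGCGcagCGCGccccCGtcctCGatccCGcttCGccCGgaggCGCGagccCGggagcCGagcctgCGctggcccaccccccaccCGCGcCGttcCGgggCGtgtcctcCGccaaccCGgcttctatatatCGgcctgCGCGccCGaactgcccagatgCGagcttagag

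Igfbp5, chr9:81914188-81914437, minus strand: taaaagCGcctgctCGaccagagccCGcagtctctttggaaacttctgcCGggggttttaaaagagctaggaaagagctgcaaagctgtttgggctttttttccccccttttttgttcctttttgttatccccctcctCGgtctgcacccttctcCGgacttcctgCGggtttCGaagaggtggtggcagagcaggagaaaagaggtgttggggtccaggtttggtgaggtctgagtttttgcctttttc

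The Igfbp3 window held 31 CG dinucleotides at a G+C content of 71.6%, and the Igf2r window held 23 at 68%. The Igfbp5 window held 8 at 51.6%, against a median G+C content of 51.2% over 33465 rat windows of this length. Of 7 motifs searched on both strands, the Igf2r window held the E-box CACGTG and the GC box GGGCGG, 2 times each and without overlap between them. The E-boxes lay 125 to 120 and 85 to 80 bases before the start, and the GC boxes 152 to 147 and 103 to 98 bases before it. An E-box was also present in the windows of Igf1r and Igfbp2 and in 5.59% of all windows. A GC box was present in 30.5% of all windows. The Igfbp7 window held 4, and the windows of Igf1r and Igfbp2 and 1 of the 2 Igf2 windows held 1 each. The FOXO motif GTAAACA (3.21% of all windows) was found in the Igfbp6 window and the TATA box TATAAA (12.9%) in the Igfbp4 window. The AP-1 motif TGANTCA (6.34%), the cAMP response element TGACGTCA (1.59%) and CCAAT (34%) were in none of the family's windows. The windows of Igfbp3 and Igfbp5 held none of the 7 motifs. On the chromosomes, Igfbp3 neighbours Igfbp1 and Igfbp5 neighbours Igfbp2, with 0 annotated genes between either pair.

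The ligands were hardly detected. Igf1, the main circulating IGF and one also made locally, had 0 counts in 5 libraries and 1 count in replicate 3 of the TBHP+FGF21 group. Igf2, the ligand typical of fetal growth, gave counts of 1, 1 and 4 in the TBHP group and of 1, 1 and 0 in the TBHP+FGF21 group, in the order of the replicates. Over all 6 libraries this was 0.0634 CPM for Igf2 (exact Poisson 95% interval 0.0274 to 0.125) and 0.00792 CPM for Igf1 (0.000201 to 0.0441), intervals that cover counting error only. A count of 0 was taken to allow up to 3 counts, or 0.131 to 0.168 CPM in a library of this depth. A difference between the groups below such levels was thus not detectable in either ligand. A low count in this table need not mean few transcripts, since Col1a2 had 72 counts in all beside 27868 to 42463 CPM of Col1a1, whose product pairs with that of Col1a2 in type I collagen.

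The receptors were well covered. Igf2r lay at the 98.6th and Igf1r at the 85.7th percentile of mean log2 CPM among genes tested, a scale not corrected for transcript length. Igf2r was at 652, 663 and 721 CPM in the TBHP libraries and at 862, 684 and 875 CPM in the TBHP+FGF21 libraries, each in the order of the replicates as in all values that follow. Replicates 1 and 3 of the TBHP+FGF21 group lay above all TBHP libraries, and replicate 2 lay among them. The means were 679 ± 36.9 and 807 ± 107 CPM (SD, n = 3 each). The log2 fold change of Igf2r, TBHP+FGF21 over TBHP, was 0.25 (standard error, SE, 0.11, unadjusted p = 0.0454, edgeR's adjusted p = 0.553), and the 95% interval ran from 1.00-fold to 1.41-fold. It thus did not pass the adjusted threshold of 0.05. When replicate 2 of the TBHP+FGF21 group was left out, the log2 fold change was 0.36 (SE 0.10, edgeR's adjusted p = 0.0382), in a fit whose choice of libraries favours a low p. Omitting another library gave 0.19 to 0.30, with an adjusted p of at least 0.301 by edgeR.

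Igf1r, the signalling receptor, was at 97.9, 93.3 and 110 CPM in the TBHP group and at 115, 108 and 115 CPM in the TBHP+FGF21 group. The groups overlapped only through replicate 3 of the TBHP group and replicate 2 of the TBHP+FGF21 group. Igf1r had a log2 fold change of 0.17 (SE 0.09, edgeR's adjusted p = 0.568), with an interval from 0.975-fold to 1.29-fold. Igf1r did not pass the adjusted threshold when replicate 2 of the TBHP+FGF21 group was omitted (0.21, edgeR's adjusted p = 0.234). There were 6.66, 7.11 and 6.54 Igf2r counts per Igf1r count in the TBHP group and 7.46, 6.31 and 7.62 in the TBHP+FGF21 group. Replicates 1 and 3 of the latter were again the highest and its replicate 2 the lowest of all libraries.

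**Figure D1:**
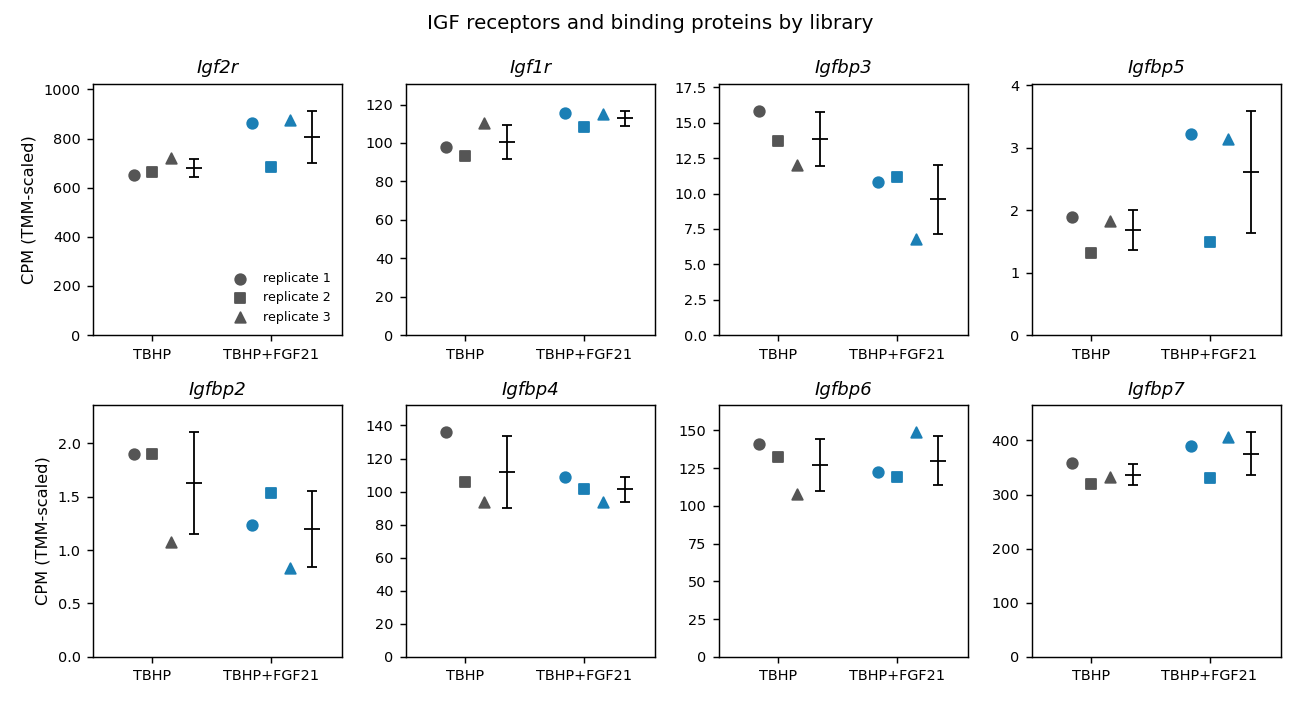
Level of the 8 tested IGF family genes in each library, in CPM after TMM scaling (vertical axes start at 0 and differ between panels); grey symbols are TBHP and blue symbols TBHP+FGF21 libraries, and bars show the mean ± SD of 3. Igfbp3 is the only panel in which the groups do not overlap, and in every other panel the blue square (replicate 2) lies within the range of the grey symbols.

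Among the binding proteins, Igfbp3 was lower and Igfbp5 higher in the mean of the TBHP+FGF21 group, and neither passed the adjusted threshold with all libraries. Igfbp3, the main IGF carrier of serum and a known target of p53, had 284, 302 and 257 counts in the TBHP group and 228, 234 and 156 in the TBHP+FGF21 group. These were 15.9, 13.7 and 12.0 CPM against 10.8, 11.2 and 6.80 CPM. Every TBHP+FGF21 library lay below every TBHP library, and replicate 3 of the TBHP+FGF21 group was the lowest. Its exact Poisson 95% interval, 5.78 to 7.96 CPM, did not meet that of any other library. The intervals of replicates 1 (9.45 to 12.3 CPM) and 2 (9.81 to 12.7 CPM) of that group both reached into the TBHP intervals. Each overlapped replicates 2 (12.2 to 15.3 CPM) and 3 (10.6 to 13.6 CPM) of the TBHP group. Igfbp3 was the only family gene without overlap between the groups, as were 9.90% of all genes tested in either direction and 5.00% in this one. The means were 13.9 ± 1.91 and 9.60 ± 2.43 CPM (SD, n = 3 each). The log2 fold change was -0.53 (SE 0.19, unadjusted p = 0.0151, edgeR's adjusted p = 0.553), a ratio of 0.692 with an interval from 0.522 to 0.919. The value was -0.65 when replicate 2 of the TBHP+FGF21 group, the library singled out for its likeness to TBHP, was left out (SE 0.19, edgeR's adjusted p = 0.0411). Leaving out replicate 3 of the TBHP+FGF21 group instead gave -0.32 (unadjusted p = 0.0582, edgeR's adjusted p = 0.973).

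Igfbp5, which binds extracellular matrix and is a substrate of PAPP-A2, was a low gene here, with 34, 29 and 39 counts in the TBHP group and 68, 31 and 72 in the TBHP+FGF21 group. The levels were 1.90, 1.31 and 1.83 CPM against 3.22, 1.48 and 3.14 CPM. Replicates 1 and 3 of the TBHP+FGF21 group were the highest, and replicate 2 lay inside the TBHP range. By exact Poisson 95% intervals, the former spanned 2.50 to 4.08 and 2.46 to 3.95 CPM, while the TBHP libraries reached at most 2.65 CPM. The means were 1.68 ± 0.319 and 2.61 ± 0.980 CPM (SD, n = 3 each). The log2 fold change was 0.65 (SE 0.31, unadjusted p = 0.0572, edgeR's adjusted p = 0.553), with an interval from 0.984-fold to 2.49-fold. Igfbp5 had a value of 0.93 without replicate 2 of the TBHP+FGF21 group (SE 0.26, edgeR's adjusted p = 0.0328), whose own level is the one inside the TBHP range. The other omissions gave 0.49 to 0.74, with an adjusted p of at least 0.360 by edgeR.

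Their ratio was followed from library to library. There were 12.0, 9.60 and 15.2 Igfbp5 counts per 100 Igfbp3 counts in the TBHP group and 29.8, 13.2 and 46.2 in the TBHP+FGF21 group. Replicates 1 and 3 of the latter exceeded all TBHP libraries, whereas replicate 2 lay among them. The pair was chosen after its values had been seen, so the ratio is a description without a test. Some marker genes also differed between the groups at an unadjusted p under 0.05. None had an adjusted p under 0.05 (0.553 for each named here, by edgeR). Acta2, a contractile actin of smooth muscle and of activated fibroblasts, was at 1439, 1330 and 1322 CPM in the TBHP group and at 910, 1378 and 687 CPM in the TBHP+FGF21 group. Of the 7 tested smooth muscle and pericyte markers, Notch3 was higher and Acta2 and Tagln were lower at an unadjusted p under 0.05, beside 8.92% of all genes in either direction. By the same rule, Pax1, Sox9 and Acan were higher and Col11a1 was lower among 8 tested chondrocyte-like markers of the nucleus pulposus. Pdgfra was higher and Postn and Scx were lower among 10 tested annulus fibrosus and fibroblast markers. Alpl was higher among 2 tested osteoblast markers. Their part in the IGF results was not tested.

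**Figure D2:**
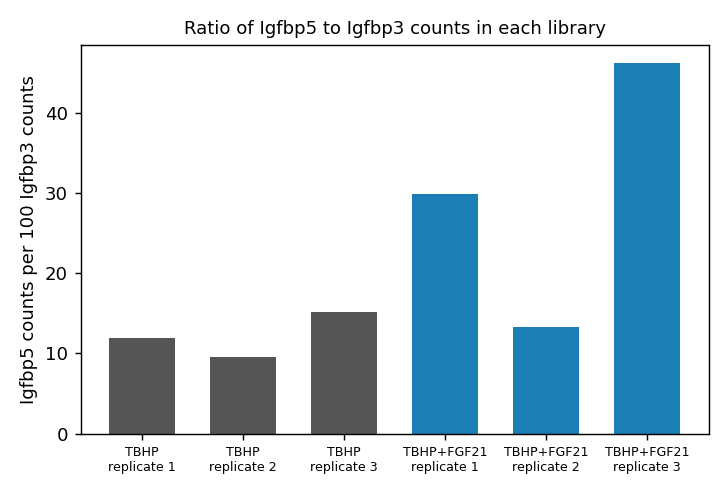
Igfbp5 counts per 100 Igfbp3 counts in each of the 6 libraries (bars start at 0; grey, TBHP; blue, TBHP+FGF21). The TBHP bars lie between 9.60 and 15.2, replicates 1 and 3 of TBHP+FGF21 reach 29.8 and 46.2, and replicate 2 of TBHP+FGF21 is at 13.2.

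The remaining 4 binding proteins did not pass the adjusted threshold in any fit. Igfbp7, a matrix-associated protein with weak affinity for IGFs, was at 358, 319 and 333 CPM in the TBHP group and at 390, 331 and 406 CPM in the TBHP+FGF21 group. Again replicates 1 and 3 of the TBHP+FGF21 group were above the TBHP libraries and replicate 2 among them. Its log2 fold change was 0.16 (SE 0.10, edgeR's adjusted p = 0.606), and 0.25 (adjusted p = 0.141) when replicate 2 was omitted. The counts split by strand summed to 13.2% to 24.9% more than the unstranded count of Igfbp7, so reads shared with a gene on the opposite strand were left out of it. For the other 7 tested family genes the excess was 0%.

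Igfbp4, an inhibitor of IGF action and the main substrate of PAPP-A, was at 136, 106 and 93.4 CPM against 109, 101 and 93.9 CPM. The TBHP+FGF21 values lay inside the TBHP range. Its log2 fold change of -0.14 (SE 0.13, edgeR's adjusted p = 0.703) became 0.03 when replicate 1 of the TBHP group was omitted. Igfbp6, which prefers IGF2, was at 141, 133 and 108 CPM against 122, 119 and 149 CPM. The groups overlapped, and the log2 fold change was 0.03 (SE 0.12, edgeR's adjusted p = 0.935), with an interval from 0.850-fold to 1.23-fold. It turned to -0.07 when replicate 3 of either group was omitted. Igfbp2, a form abundant in fetal tissues, had only 19 to 42 counts per library. It was at 1.90, 1.90 and 1.08 CPM against 1.23, 1.53 and 0.828 CPM, with replicate 3 the lowest in each group. Its log2 fold change was -0.44 (SE 0.32, edgeR's adjusted p = 0.636), and the interval of the ratio, 0.452 to 1.20, includes both no difference and the ratio seen for Igfbp3.

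Across the 8 tested genes, 5 had a higher and 3 a lower level in the TBHP+FGF21 group, and their median log2 fold change was 0.09 against -0.0052 over all 11426 genes tested. Igfbp3 and Igf2r, 2 of the 8, had an unadjusted p under 0.05, as did 8.92% of all genes tested. By p, Igfbp3 ranked 250 and Igf2r 920 of 11426. None of the 8 had an adjusted p under 0.05 by edgeR, DESeq2 or limma-voom, and edgeR called 0.00875% of all genes, which is 1 gene. In the fit without replicate 2 of the TBHP+FGF21 group, 4 of the 8 had an unadjusted p under 0.05 beside 23.6% of all genes, and 3 had an adjusted p under 0.05 beside 7.50% of all genes. Nothing is read from these counts.

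**Figure D3:**
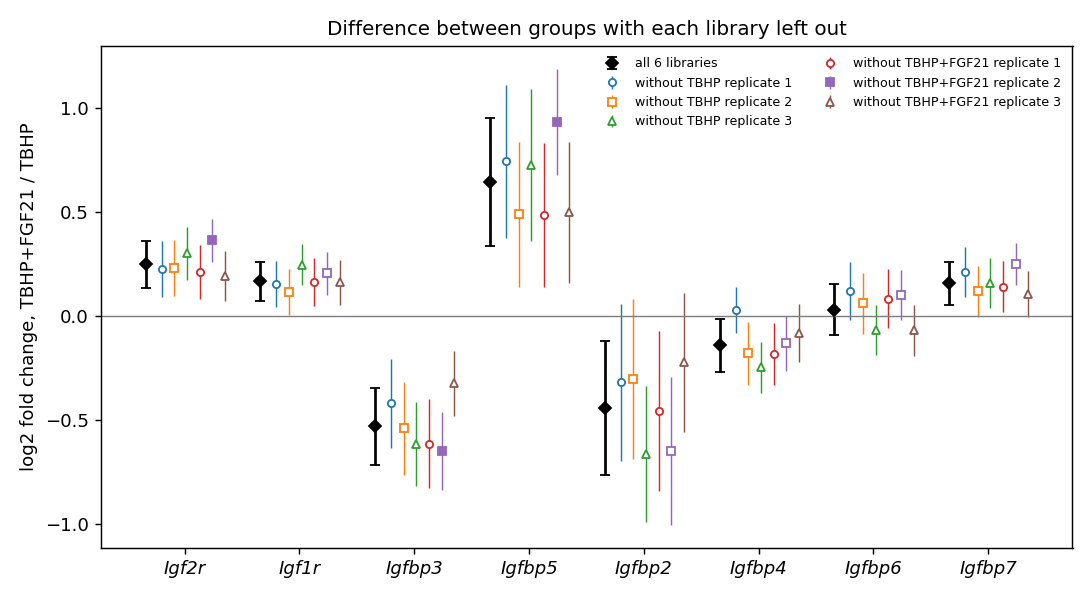
Log2 fold change (TBHP+FGF21 over TBHP, edgeR) of the 8 tested genes with all 6 libraries (black diamonds) and with each library left out (coloured symbols); bars are 1 standard error, and filled coloured symbols mark an adjusted p under 0.05. The 3 filled squares, for Igf2r, Igfbp3 and Igfbp5, all belong to the fit without replicate 2 of TBHP+FGF21, and values for Igfbp4 and Igfbp6 lie on both sides of 0.

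The genes whose pattern over the 6 libraries was most like that of a family member were sought for the 3 members with the widest range, by the root mean square distance between centred log2 CPM values. For Igfbp5 the nearest of 11425 genes were Ednra (distance 0.12), Aox1 (0.14) and Efna5 (0.14). Ednra, the endothelin A receptor, was at 4.02, 2.49 and 3.52 CPM in the TBHP group and at 5.59, 3.16 and 7.06 CPM in the TBHP+FGF21 group. For Igfbp3 the nearest were Nnmt (0.091), Trnp1 (0.093) and Eif3j (0.097). Nnmt, which methylates nicotinamide, was at 26.1, 23.6 and 20.1 CPM against 17.8, 21.4 and 12.9 CPM. For Igfbp2 the nearest were the mitochondrial gene ND6 (0.065), Prorsd1 (0.071) and Tmsb4x (0.077). Tmsb4x, which binds actin monomers, was at 1823, 1846 and 1091 CPM against 1062, 1520 and 840 CPM. Replicate 3 was again the lowest in each group. Counting error limits these matches. In replicate 3 of the TBHP+FGF21 group, the exact Poisson interval of Igfbp2 ran from 0.499 to 1.29 CPM. Those of Igfbp5 and Igfbp3 there ran from 2.46 to 3.95 and from 5.78 to 7.96 CPM. On the log2 scale, such intervals are wide beside the distances given here. Which genes came nearest may thus rest on counting error, and no shared pattern is read from them.

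The rest of the pathway was followed in 6 lists of 87 different genes, of which 73 were tested. Of these, 6 were higher and 1 was lower at an unadjusted p under 0.05, beside 4.63% and 4.29% of all genes, or 9.59% together beside 8.92%. None had an adjusted p under 0.05 by edgeR. In the fit without replicate 2 of the TBHP+FGF21 group, 8 of 75 did (10.7%, beside 7.50% of all genes), all of which are named with their lists, again as a description. Of 13 other IGF system genes, 5 were tested and 0 had an unadjusted p under 0.05. The smallest p was that of Lrp1, an endocytic receptor, at 2384, 2160 and 2625 CPM against 2866, 2478 and 2751 CPM (log2 fold change 0.18, edgeR's adjusted p = 0.588). Igfbp1 had 3 counts and Igfals, the partner of IGFs in blood, had 2. Of 9 listed IGFBP proteases and stanniocalcins, 7 were tested, 2 higher and 5 lower, and 0 had an unadjusted p under 0.05. C1s, a complement protease, had the smallest p, at 7.43, 8.03 and 6.98 CPM against 10.5, 6.17 and 12.1 CPM (log2 fold change 0.36, edgeR's adjusted p = 0.583). With replicate 2 of the TBHP+FGF21 group omitted, C1s was at 0.60 (edgeR's adjusted p = 0.0265) and Adam12, a metalloprotease, at -0.42 (0.0320). Here too replicate 2 of the TBHP+FGF21 group lay apart from the other libraries of its group.

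Downstream of IGF1R, 19 of 21 adaptor and proximal signalling genes were tested and 0 had an unadjusted p under 0.05. The median difference of this list was 0.0096 on the log2 scale. Irs2, an adaptor of the insulin and IGF1 receptors, had the smallest p, at 28.8, 26.1 and 32.2 CPM against 32.6, 32.1 and 36.5 CPM (log2 fold change 0.22, edgeR's adjusted p = 0.557). Pik3cd, a catalytic subunit of PI3-kinase, was at -0.19 with all libraries and at -0.38 with replicate 2 of the TBHP+FGF21 group omitted (edgeR's adjusted p = 0.0300). Of 22 tested genes of the AKT, FOXO and mTORC1 list, 1 had an unadjusted p under 0.05, beside 8.92% of all genes. This was Mtor, the kinase of both mTOR complexes. Mtor was at 66.4, 72.1 and 77.5 CPM against 83.4, 79.1 and 87.5 CPM (log2 fold change 0.21, edgeR's adjusted p = 0.553). The groups did not overlap in Mtor, as in 9.90% of all genes tested in either direction. Nor did they overlap in Bcl6, Pdk4 and Cish, which are described below. When replicate 2 of the TBHP+FGF21 group was omitted, the adjusted p of Mtor was 0.139 by edgeR. It was then 0.0354 for Tsc2, an inhibitor of mTORC1 (log2 fold change 0.37), and 0.0313 for Eif4ebp1, a translation repressor that mTORC1 inactivates (-0.41).

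Of 15 tested FOXO target genes, which AKT signalling is known to repress through FOXO factors, 4 were higher and 1 was lower at an unadjusted p under 0.05, beside 4.63% and 4.29% of all genes. The list was chosen with earlier results known and was not tested as a set. Bcl2l11, which encodes the pro-apoptotic protein BIM, was at 15.5, 13.4 and 13.0 CPM against 20.3, 14.2 and 26.8 CPM (log2 fold change 0.55). Gadd45a, a stress-response gene, was the one lower, at 369, 369 and 353 CPM against 267, 357 and 200 CPM (log2 fold change -0.41). In both genes replicate 2 of the TBHP+FGF21 group was the library of its group nearest to the TBHP libraries. Pdk4, an inhibitor of pyruvate dehydrogenase, was at 1.06, 0.181 and 0.563 CPM against 1.14, 1.39 and 1.57 CPM (log2 fold change 1.23), on 124 counts in all. Sesn3, a stress-induced inhibitor of mTORC1, and Bcl6, a transcriptional repressor, had log2 fold changes of 0.29 and 0.33. The adjusted p of each of these 5 genes was 0.553 by edgeR. In the fit that leaves out replicate 2 of the TBHP+FGF21 group, the values were 0.77 for Bcl2l11 (edgeR's adjusted p = 0.00414), 0.40 for Sesn3 (0.0471) and -0.63 for Gadd45a (0.00414). In growth hormone receptor signalling, which drives Igf1 in liver, 7 of 8 genes were tested. Of these, 1 had an unadjusted p under 0.05, the feedback inhibitor Cish, beside 8.92% of all genes. Cish was at 2.57, 2.13 and 2.16 CPM against 2.89, 3.06 and 3.31 CPM (log2 fold change 0.44, edgeR's adjusted p = 0.553).

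**Figure D4:**
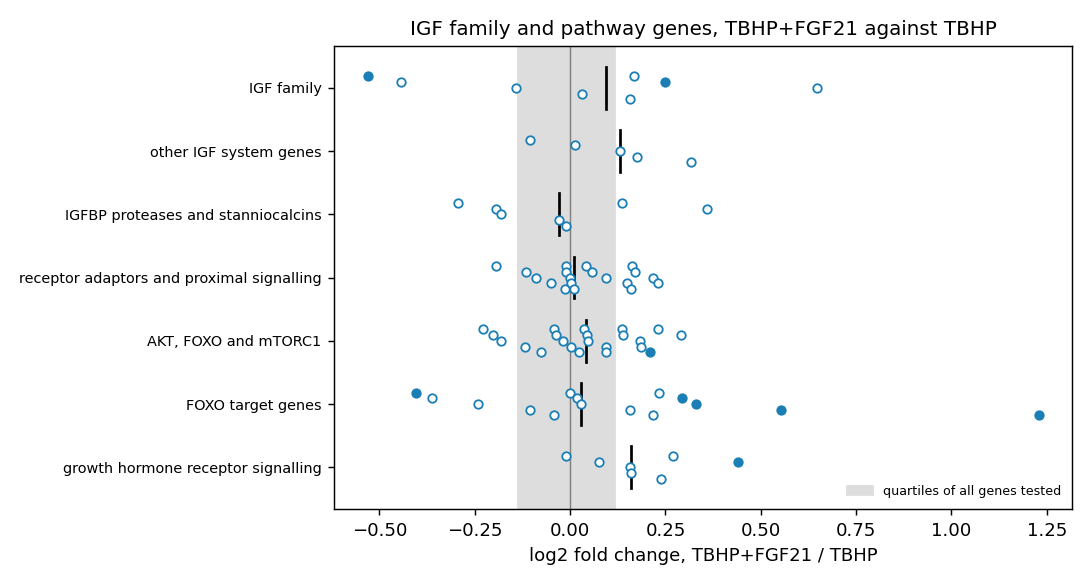
Log2 fold change (TBHP+FGF21 over TBHP, all 6 libraries) of each tested gene of the IGF family and of the 6 pathway lists; filled points have an unadjusted p under 0.05, black bars are list medians, and the grey band spans the quartiles of all genes tested, -0.14 to 0.12. No point shown had an adjusted p under 0.05.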

How the data were processed

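The 6 libraries were grouped by title. According to the labels, poly-A RNA was prepared with a directional kit, and the submitters' processing notes name STAR and featureCounts. Versions, genome build and annotation are not given in the sources used here. The authors deposited a combined table of read counts per gene symbol, handled here with the unit of expected counts because 22 rows held values that were not whole, which were rounded. They also deposited per-sample counts with an unstranded and 2 strand columns. For the 8 tested genes these strand columns held similar shares (23.5% to 65.2% in one of them, widest in low genes), so the counts were not separated by strand. Reads shared with overlapping genes, and near-identical copies, cannot be resolved from the counts.

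Genes were tested with edgeR 4.0.16 in R 4.3.3 (TMM scaling, at least 10 counts by filterByExpr, quasi-likelihood test, Benjamini-Hochberg adjustment over 11426 genes), with group as the only term and a threshold of 0.05. Limma 3.58.1 (voom) and DESeq2 1.42.0 were alternatives, 15 in all with 6 that leave out a library. Standard errors were derived from the fold change and its F statistic, and the scripts were tested on simulated data. Levels are not corrected for transcript length, so a ratio of the counts of 2 genes is read only between libraries. For the same reason, ranks of mean log2 CPM do not rank transcripts. No pair of libraries agreed within sampling noise (chi-square per gene of 6.94 or more over 15 pairs).

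The members and lists were chosen with earlier results of these data known. Named were all 10 members, the genes of each pathway list with an unadjusted p under 0.05 (otherwise the smallest p), and the 3 nearest patterns of 3 members. From 9 marker lists, some of the most abundant markers and some of those at 0 were also named. Acta2 and the other markers that differed, Adam12, Pik3cd, Tsc2, Eif4ebp1, Col1a2, Igfbp1 and Igfals were added after their values were seen.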

Additional observations from a re-analysis of the deposited data

How the results depend on the processing

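The number of family genes with an unadjusted p under 0.05, 2 with all libraries, was 1 in the second strand column and 0 to 4 when a library was left out. The number with an adjusted p under 0.05 was 0 to 3 when a library was left out, the 3 being in the fit without replicate 2 of the TBHP+FGF21 group. Over all genes, 1019 had an unadjusted p under 0.05, against 1599 with the replicate number as a block and 337 to 2732 with a library left out. The 1 gene with an adjusted p under 0.05 by edgeR became 4 by DESeq2, 5 with no filter on low counts, 2 with the replicate block, 0 by limma-voom (996 unadjusted), 0 in the unstranded per-sample counts (1082), 0 in the first strand column (956) and 0 in the second (1049) (unadjusted counts by edgeR unless limma-voom is named), and 0 to 867 with a library left out. The pathway count of 7 became 1 to 21 with a library left out. Whether the replicate numbers pair the libraries could not be settled with 3 libraries per group. The correlations of same-numbered deviations were -0.12, 0.21 and 0.15, and those of other pairs ran from -0.26 to 0.18. The block gave 3 family genes with an unadjusted and 0 with an adjusted p under 0.05. The log2 fold change reversed in sign for Igfbp4 (0.029 without replicate 1 of the TBHP group, range -0.25 to 0.029) and Igfbp6 (-0.066 and -0.069 without replicate 3 of the TBHP and of the TBHP+FGF21 group, range -0.069 to 0.12). For single genes of the family, 112 values under an alternative kept direction and side of the threshold, 3 passed it and 3 reversed. The causes were not tested. Igf1 and Igf2 were too low to compare at this depth.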
